A study of Mus musculus with 10 samples.

Results

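The 8 genes described here are markers of the podocyte: Nphs1, Podxl, Synpo, Ptpro, Wt1, Cd2ap, Magi2 and Plce1. They were taken by name from the authors' 3 deposited comparison tables, where all 8 had a row among 30431 rows, 23276 of which carried a gene name. The tables compare kidney RNA taken from mice on postnatal day 21. The 3 DM libraries came from mice of genotype Pkhd1Cre; Pkd2 F/F; miR-21null, the 3 SM libraries from Pkhd1Cre; Pkd2 F/F mice without the miR-21 null allele, and the 4 WT libraries from wild-type mice. Pkd2 encodes polycystin-2, a cation channel of the primary cilium whose loss causes cystic kidneys. Pkhd1Cre is a Cre driver known for activity in the collecting duct, and Pkd2 F/F is a floxed allele that Cre deletes. DM and SM kidneys therefore share the Cre and the floxed alleles, and whether the wild types carried either is not stated in the labels. The comparisons ask what differs when Pkd2 is deleted in cells with the Cre, and what differs further when miR-21 is also absent.

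Podocytes wrap the capillaries of the glomerulus with interlocking foot processes, and the slit diaphragm between those processes is the last barrier of blood filtration. Nephrin, the product of Nphs1, forms the slit, and adaptors such as CD2AP and MAGI2 tie it to the actin of the foot process. Podocalyxin (Podxl) and the receptor phosphatase GLEPP1 (Ptpro) cover the free surface of the cell, synaptopodin (Synpo) organises its actin, phospholipase C epsilon (Plce1) signals within it, and the zinc finger factor Wt1 keeps the cell differentiated. Mutations in several of these genes cause inherited nephrotic syndrome. Most of the 8 are not limited to podocytes: Podxl is also known from endothelium and mesothelium, Wt1 from mesothelium, Ptpro from macrophages, Magi2 and Synpo from neurons, and Cd2ap and Plce1 from many cell types.

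The sequences that bear on the 2 alleles and on the genes that changed are given first. The mature miRNA of the gene that is null in DM mice, miR-21a-5p, is encoded at chr11:86584120-86584141 on the minus strand (RefSeq, GRCm38.p6), and its seed, bases 2 to 8, is in capitals.
miR-21a-5p: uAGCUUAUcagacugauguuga
The longest annotated 3′ UTR of each gene (GENCODE release M21, GRCm38) was searched for ATAAGCT, the word that pairs with the whole seed, and for TAAGCT, which pairs with bases 2 to 7. The longer word was present once in Cd2ap and absent from the other 7 genes, and 8.18% of 12719 genes averaging 1 CPM (read counts scaled to library size) or more held it. The shorter word, which 27.2% of those genes held, was present in Cd2ap (3 matches, 1 of them inside the longer word), in Podxl (1) and in Synpo (1). The 3′ UTR of Cd2ap is 3377 bases long, against a median of 1205 over the genes searched. The sites of Cd2ap and Podxl are shown on the strand of the gene with the matched word in capitals.
Cd2ap, chr17:42795971-42796000, minus strand: tatctttacaaATAAGCTgtaagataaact
Cd2ap, chr17:42794988-42795017, minus strand: aaagttaggtttTAAGCTttactttagaaa
Cd2ap, chr17:42793502-42793531, minus strand: gtttgtgaccacTAAGCTtgcttcttacta
Podxl, chr6:31519488-31519507, minus strand: aatgcttttgtgTAAGCTgg

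Upstream windows of 250 bases before the RefSeq start (GRCm38.p6) were at hand for Nphs1, Ptpro, Cd2ap, Magi2 (2 starts) and Plce1. These starts are not always the outermost ones annotated by GENCODE. The windows of Nphs1 and Plce1 and the second of Magi2 lie inside the GENCODE gene, as does most of the Cd2ap window. Sequence before the outermost starts of those 3 genes, Nphs1, Plce1 and Cd2ap, was thus mostly not searched. Each was searched on both strands for 6 words: GCGTGGG and GCGGGGG (the WT1 and EGR type of site), CAGCTG (an E-box), TAATTA (homeodomain factors such as LMX1B), TGTTTAC (forkhead factors) and TGCTGA (MAF factors). Over 32817 windows of the same length, 4.31%, 9.64%, 13.0%, 4.85%, 3.16% and 16.1% held these words, in that order. The windows of Nphs1 and Ptpro, which had lower levels in DM and SM kidneys, and of Cd2ap, which had higher ones, are shown 5′ to 3′ with any match in capitals.
Nphs1, chr7:30459808-30460057, plus strand: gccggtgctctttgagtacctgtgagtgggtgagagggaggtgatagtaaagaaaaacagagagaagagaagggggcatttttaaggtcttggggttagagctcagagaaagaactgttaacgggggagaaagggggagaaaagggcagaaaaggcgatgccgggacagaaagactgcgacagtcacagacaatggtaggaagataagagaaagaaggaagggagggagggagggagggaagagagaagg
Ptpro, chr6:137252049-137252298, plus strand: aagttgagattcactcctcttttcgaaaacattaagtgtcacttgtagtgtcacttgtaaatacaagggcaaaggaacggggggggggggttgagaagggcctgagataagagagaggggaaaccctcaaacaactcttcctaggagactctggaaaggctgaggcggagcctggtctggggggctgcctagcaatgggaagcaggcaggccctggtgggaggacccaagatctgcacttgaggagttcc
Cd2ap, chr17:42876425-42876674, minus strand: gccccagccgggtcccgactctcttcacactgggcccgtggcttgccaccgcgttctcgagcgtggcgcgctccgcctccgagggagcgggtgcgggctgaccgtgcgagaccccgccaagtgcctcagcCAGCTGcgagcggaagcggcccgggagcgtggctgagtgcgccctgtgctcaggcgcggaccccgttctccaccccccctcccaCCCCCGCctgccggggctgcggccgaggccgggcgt
The Nphs1 and Ptpro windows held 0 matches to the 6 words and had GC contents of 50.8% and 53.6%. The Cd2ap window had a GC content of 76.4% and held CAGCTG starting 120 bases before the start and the reverse complement of GCGGGGG starting 36 bases before it. The first Magi2 window held CAGCTG and the reverse complement of GCGTGGG, the second held TAATTA, and the Plce1 window held 0 matches.

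Fold changes (log2) and p-values of single genes come from edgeR's likelihood ratio test in the authors' deposited tables. A gene was called where the adjusted p was below 0.05 over all rows. The standard error (SE) and its 95% interval were derived from each fold change and its likelihood ratio. Values per library and library sizes were not analysed here, so the depth is unknown. The level of a group, in CPM, was solved from each row's deposited average and its fold changes, and carries no error of its own. Nothing says whether littermates were used, and the p-values rest on the spread between these 10 libraries.

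As a check of tissue and labels, the podocyte genes Nphs1 and Podxl averaged 35.0 and 282.8 CPM, and proximal tubule markers summed to 6711.67 CPM in DM, 6526.57 in SM and 16527.3 in WT kidneys. Pkd2 itself had computed levels of 169.9 CPM in DM, 179.7 in SM and 239.1 in WT kidneys, with log2 fold changes in the authors' deposited tables of -0.49 in DM versus WT and -0.41 in SM versus WT that did not pass (adjusted p = 0.0838 and 0.179, edgeR). The hepatocyte list, with Alb among its 10 genes, summed to 122.5 CPM in DM, 97.7 in SM and 301.5 in WT kidneys, with 1 higher and 7 lower in DM versus WT and 0 higher and 8 lower in SM versus WT in the authors' deposited tables. The median log2 fold change of that list was -5.42 in DM versus WT and -6.48 in SM versus WT, and Alb had levels of 1.03 CPM in DM, 0.33 in SM and 132.3 in WT kidneys. Hepatocytes are not cells of the kidney, and the source of these transcripts was not tested. Group values cannot show which WT libraries carried them, and both comparisons with WT share those libraries. For kidney cells in whole tissue, fewer cells of a type, less RNA per cell and more RNA from other cells cannot be told apart.

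Nphs1, Podxl and Ptpro fell in both mutants relative to WT, Cd2ap rose in both, and Synpo, Wt1, Magi2 and Plce1 did not pass. The same split of 3 lower, 1 higher and 4 not called was found in SM versus WT and in DM versus WT, which share the WT libraries. Of all rows, 14.0% were called in SM versus WT (6.09% lower and 7.87% higher) and 13.5% in DM versus WT (5.92% lower and 7.55% higher). All 8 genes averaged above 10 CPM, and of the 10539 rows at that level 20.0% were called in SM versus WT and 17.9% in DM versus WT. The median log2 fold change of the 8 genes was -0.01 in SM versus WT and -0.37 in DM versus WT, beside -0.03 and -0.02 over those 10539 rows. The called genes thus moved in opposite directions. Read against a t distribution with 7 residual degrees of freedom, in place of the chi-square distribution and with edgeR's estimate of the spread kept, 0 of the 8 were called in either comparison. Under that reading 682 of all rows were called in SM versus WT and 451 in DM versus WT. After recentring on ubiquitous genes, Nphs1 kept its call in DM versus WT (and not in SM versus WT), Cd2ap kept it in both, and Podxl and Ptpro kept it in neither.

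**Figure D1:**
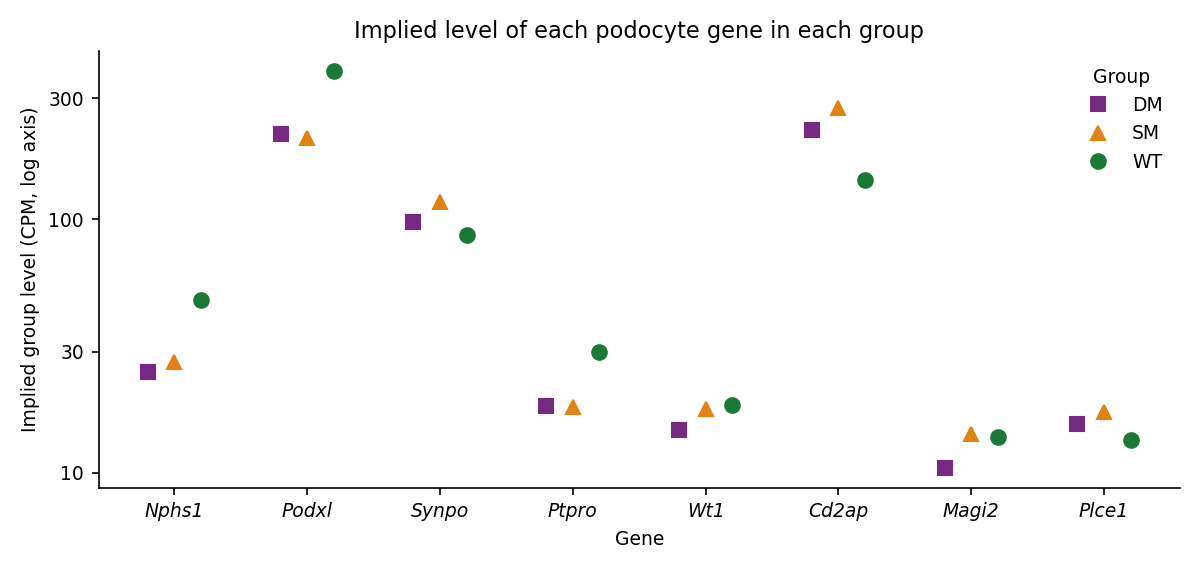
Computed level in CPM (log axis) of each of the 8 podocyte genes in DM (squares), SM (triangles) and WT (circles) kidneys. Nphs1, Podxl and Ptpro lie lower in DM and SM than in WT, Cd2ap lies higher, and the remaining genes lie closer together.

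Nphs1 (ENSMUSG00000006649.17, chromosome 7, 30458315 to 30487223, plus strand, GRCm38) encodes nephrin, the transmembrane protein of the slit diaphragm. Its computed level was 25.0 CPM in DM and 27.4 in SM, against 48.2 CPM in WT kidneys. Both mutant groups thus lay closer to each other than to the wild type. In the authors' deposited table of SM versus WT its log2 fold change was -0.81 (SE 0.22, 95% interval -1.24 to -0.39, adjusted p = 0.00261). In the authors' deposited table of DM versus WT it was -0.95 (SE 0.22, interval -1.37 to -0.52, adjusted p = 3.23e-04), 51.9% of the WT level. The annotation places an antisense gene, Nphs1os, inside Nphs1 at 30462164 to 30465591 on the minus strand. Its row, under the synonym Nphs1as, averaged 0.0621 CPM and was not called. Another antisense gene, Gm28991, lies within Plce1, and the strand setting of the counting was not given.

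Cd2ap (ENSMUSG00000061665.7, chromosome 17, 42792951 to 42876665, minus strand) encodes the adaptor that binds nephrin and links it to actin and to endocytosis, and it moved the opposite way. Its computed level was 224.9 CPM in DM and 275.1 in SM, against 142.8 CPM in WT kidneys. The authors' deposited table of SM versus WT gave 0.95 (SE 0.23, interval 0.49 to 1.4, adjusted p = 8.55e-04), a level 1.93 times that of WT. The authors' deposited table of DM versus WT gave 0.66 (SE 0.23, interval 0.20 to 1.11, adjusted p = 0.0377). Among the 10539 rows averaging 10 CPM or more, the fold change of Cd2ap lay at the 94.6th percentile in SM versus WT and at the 91.6th in DM versus WT.

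Magi2 (chromosome 5, 19227036 to 20704792), a scaffold with several PDZ domains that binds nephrin, had the lowest average of the 8 genes in CPM (12.9), with 10.4 CPM in DM, 14.2 in SM and 13.9 in WT kidneys. Its log2 fold change in the authors' deposited tables was 0.03 in SM versus WT (interval -0.45 to 0.51) and -0.41 in DM versus WT (interval -0.89 to 0.07, adjusted p = 0.335, edgeR), and neither passed. Magi2 spans several annotated pseudogenes and small RNAs, whose reads may be counted with it.

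Podxl (ENSMUSG00000025608.9, chromosome 6, 31519488 to 31563981, minus strand) encodes podocalyxin, the negatively charged sialomucin that keeps foot processes apart. Its computed level was 217.9 CPM in DM and 209.6 in SM, against 386.4 CPM in WT kidneys. The authors' deposited table of SM versus WT gave a log2 fold change of -0.88 (SE 0.22, interval -1.32 to -0.45, adjusted p = 0.00122), 54.2% of the WT level. The authors' deposited table of DM versus WT gave -0.83 (SE 0.22, interval -1.26 to -0.39, adjusted p = 0.00297), 56.4% of the WT level. Per kilobase of exon it was the most abundant of the 8 genes in every group, at 39.7 CPM per kb in DM, 38.2 in SM and 70.4 in WT kidneys.

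Ptpro (ENSMUSG00000030223.14, chromosome 6, 137252319 to 137463233, plus strand) encodes GLEPP1, a receptor tyrosine phosphatase of the podocyte surface. Its computed level was 18.3 CPM in DM and 18.2 in SM, against 29.9 CPM in WT kidneys. The log2 fold change was -0.71 (SE 0.23, interval -1.17 to -0.25, adjusted p = 0.0211) in the authors' deposited table of SM versus WT. It was -0.71 as well in the authors' deposited table of DM versus WT (SE 0.23, interval -1.16 to -0.25, adjusted p = 0.0222). Macrophages are also known to express Ptpro. Their markers are given with the other cell types, and their share of the Ptpro reads was not tested.

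Synpo (chromosome 18, 60593973 to 60660142), the actin-associated protein synaptopodin, had 97.2 CPM in DM, 116.9 in SM and 86.4 in WT kidneys. Its log2 fold change in the authors' deposited tables was 0.44 in SM versus WT (SE 0.21, unadjusted p = 0.0340, adjusted p = 0.163) and 0.17 in DM versus WT (SE 0.21, adjusted p = 0.755). The interval in SM versus WT ran from 0.03 to 0.84, so a decrease of the size seen for Nphs1 lay outside it. Plce1 (chromosome 19, 38481109 to 38785030), the phospholipase C epsilon gene, had 15.5 CPM in DM, 17.3 in SM and 13.5 in WT kidneys, with log2 fold changes of 0.36 in SM versus WT and 0.20 in DM versus WT in the authors' deposited tables (adjusted p = 0.441 and 0.764).

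Wt1 (chromosome 2, 105126529 to 105173616), a transcription factor that mature podocytes keep expressing, had 14.8 CPM in DM, 17.8 in SM and 18.5 in WT kidneys. Its log2 fold change was -0.06 in SM versus WT (SE 0.25, interval -0.55 to 0.43, adjusted p = 1.0) and -0.33 in DM versus WT (SE 0.25, interval -0.81 to 0.16, adjusted p = 0.507) in the authors' deposited tables. The interval in SM versus WT lies above the estimates of the authors' deposited table for Nphs1, Podxl and Ptpro. The difference between Wt1 and those genes was not tested, since the tables hold no covariance between genes.

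**Figure D2:**
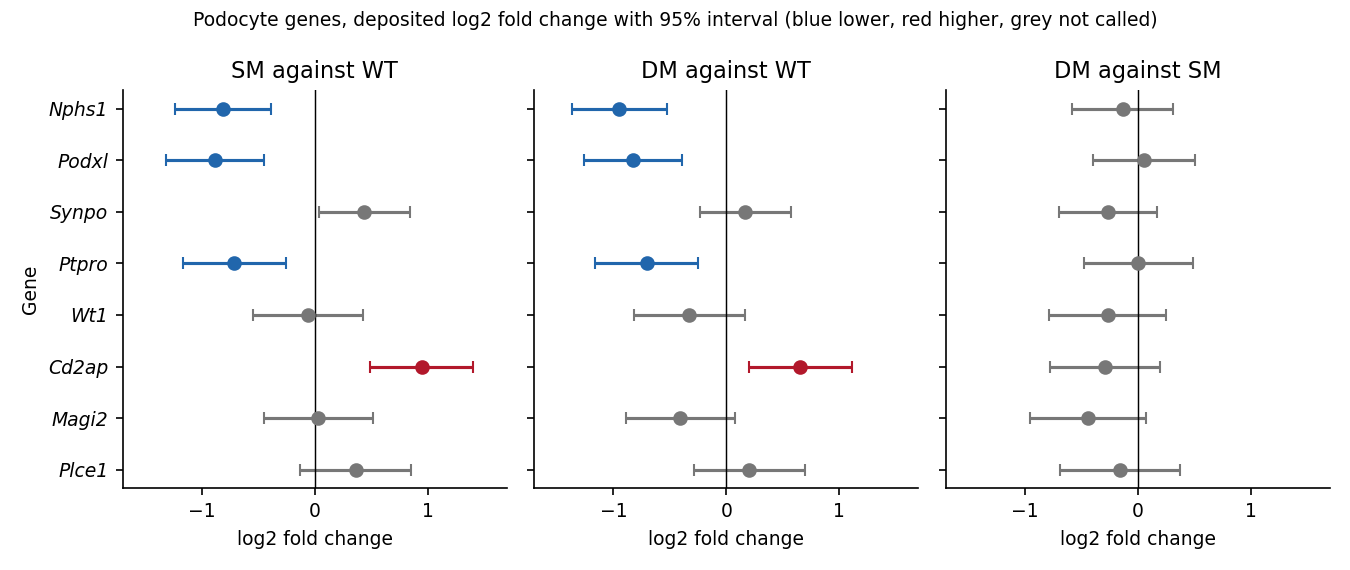
Deposited log2 fold change (points) and 95% interval (bars) of the 8 podocyte genes in the 3 comparisons. Nphs1, Podxl and Ptpro lie below 0 and Cd2ap above 0 in both comparisons with WT, and every interval of DM versus SM includes 0.

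Between DM kidneys and SM kidneys, which differ in miR-21, none of the 8 genes was called. In the authors' deposited table of DM versus SM, 0 of 8 passed and 0 had an unadjusted p below 0.05 by edgeR's likelihood ratio test, where 0.0789% of all rows passed. The fold changes ran from -0.44 for Magi2 (SE 0.26, interval -0.95 to 0.07, unadjusted p = 0.0919) to 0.06 for Podxl (SE 0.23, interval -0.40 to 0.51) in the authors' deposited table. Cd2ap, with the seed match in its 3′ UTR, had -0.29 (SE 0.25, interval -0.78 to 0.20), Nphs1 had -0.13 (SE 0.23, interval -0.58 to 0.31) and Ptpro had 0.01 (SE 0.25, interval -0.48 to 0.49) in the authors' deposited table. Of the 8 values, 6 lay below 0, beside 49.0% of rows averaging 10 CPM or more, and the median of the 8 was -0.21, beside 0.0041 over those rows. Together the 8 intervals span log2 values of -0.95 to 0.51. With 3 libraries a group, differences within each gene's own interval remain compatible with these values.

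Per kilobase of exon in GENCODE's gene models, the order of levels in WT kidneys was Podxl (70.4 CPM per kb), Synpo (9.07), Cd2ap (9.0), Nphs1 (7.28), Ptpro (4.44), Wt1 (2.99), Magi2 (1.22) and Plce1 (0.84). In SM kidneys Cd2ap (17.3) and Synpo (12.3) stood above Nphs1 (4.15), and Wt1 (2.87) stood above Ptpro (2.71). In DM kidneys Cd2ap had 14.2, Synpo 10.2, Nphs1 3.78, Ptpro 2.72 and Wt1 2.39 CPM per kb. The spread of a level within a group was not analysed here, so neighbours in this order cannot be said to differ. The authors' transcript models may have other lengths than those used.

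**Figure D3:**
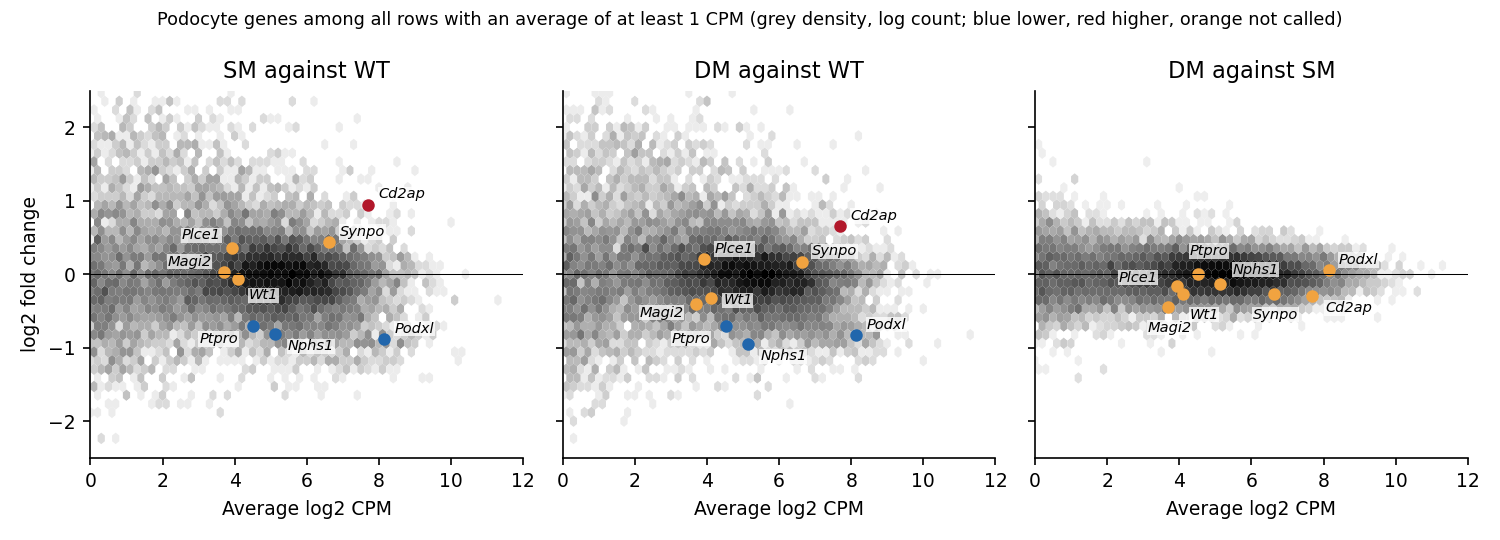
Deposited log2 fold change against deposited average log2 CPM for the 8 podocyte genes (coloured, named) over the density of all rows averaging 1 CPM or more (grey). In the comparisons with WT, Nphs1, Podxl and Ptpro lie in the lower part of the cloud and Cd2ap in its upper part, with other rows beyond each, and in DM versus SM all 8 lie within it.

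Other genes of the podocyte and its matrix were also called in both directions. Of 69 further genes in 5 lists, 18 rose and 5 fell in SM versus WT and 11 rose and 4 fell in DM versus WT in the authors' deposited tables. Their median log2 fold change was 0.20 in SM versus WT and 0.10 in DM versus WT, beside -0.01 and 0.0022 over all rows averaging 1 CPM or more, of which 21.6% and 19.8% were called. None of the 69 passed in DM versus SM, and 0 had an unadjusted p below 0.05 by edgeR's test.

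Among 15 partners of the slit diaphragm, 6 rose and 0 fell in SM versus WT, and 4 rose and 0 fell in DM versus WT in the authors' deposited tables. The nephrin relatives Kirrel (NEPH1) and Kirrel3 rose by 0.77 and 1.47 in SM versus WT and by 0.58 and 1.18 in DM versus WT in the authors' deposited tables. Fat1, a giant protocadherin, stood at 1.03 and 0.87, and the scaffold Iqgap1 at 0.92 and 0.82, in the authors' deposited tables of SM and of DM versus WT. These 4 genes are also expressed outside podocytes. The median of the 15 partners was 0.45 in SM versus WT and 0.18 in DM versus WT.

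Of 18 cytoskeletal genes, 6 rose and 3 fell in SM versus WT and 3 rose and 1 fell in DM versus WT in the authors' deposited tables. The largest rises were those of Pdpn, podoplanin, at 2.44 in SM versus WT and 2.04 in DM versus WT, and of Anln, an actin-binding protein of dividing cells, at 2.28 and 2.17, in the authors' deposited tables. Myh9 (non-muscle myosin) rose by 0.89 in SM versus WT and had 0.64 in DM versus WT (adjusted p = 0.217), and Myo1e rose by 0.59 in SM versus WT and 0.58 in DM versus WT, in the authors' deposited tables. Ddn, dendrin, a partner of nephrin at the slit, fell by 0.86 in SM versus WT (SE 0.25, adjusted p = 0.00823), and had -0.64 in DM versus WT (adjusted p = 0.0719) in the authors' deposited tables. Clic5, a chloride intracellular channel protein of foot processes, had -0.58 in SM versus WT and -0.59 in DM versus WT (adjusted p = 0.0337 and 0.0327) in the authors' deposited tables and fell in both. The median of the 18 genes was 0.23 in SM versus WT and 0.01 in DM versus WT.

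Podocyte transcription factors had 0 of 8 called in either comparison with WT in the authors' deposited tables, with 1 of 8 at an unadjusted p below 0.05 in each (edgeR). That gene was Lmx1b, chosen for mention after its values were seen, at -1.04 in SM versus WT (SE 0.43) and -0.99 in DM versus WT (SE 0.42) with an average of 0.841 CPM in the authors' deposited tables. The median of the 8 factors was -0.17 in SM versus WT and -0.27 in DM versus WT.

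Secreted and surface genes had 1 of 11 higher and 2 lower in SM versus WT, and 1 higher and 3 lower in DM versus WT, in the authors' deposited tables. Cdkn1c, the cell cycle inhibitor p57 of mature podocytes, fell by 0.85 and 0.81 in SM and DM versus WT (adjusted p = 0.00271 and 0.00519) in the authors' deposited tables. It was on that list, and is among the lower calls of both comparisons, though it is neither a secreted nor a surface protein. Vegfa, the growth factor that podocytes supply to glomerular endothelium, fell by 0.73 in SM versus WT (adjusted p = 0.0104) and had -0.58 in DM versus WT (adjusted p = 0.0603) in the authors' deposited tables. Robo2, a receptor that binds nephrin through an adaptor, had -0.99 and Ildr2 had -0.86 in DM versus WT (adjusted p = 7.28e-04 and 6.45e-04) in the authors' deposited table, and both fell. In SM versus WT they had -0.54 and -0.49 and did not pass, and their DM versus SM values of -0.46 and -0.37 did not pass in the authors' deposited tables. Sulf1, a heparan sulfatase, rose by 1.46 and 1.29 in SM and DM versus WT in the authors' deposited tables. The median of the 11 genes was -0.15 in SM versus WT and -0.23 in DM versus WT.

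Of 17 genes of the glomerular basement membrane and its adhesion receptors, 5 rose and 0 fell in SM versus WT, and 3 rose and 0 fell in DM versus WT in the authors' deposited tables. Agrn (agrin) had 1.15 and 1.19, Lama5 1.02 and 1.08, and Itga3 1.08 and 0.90 in SM and DM versus WT in the authors' deposited tables. Lamc1 rose by 0.92 in SM versus WT and had 0.65 in DM versus WT (adjusted p = 0.0533) in the authors' deposited tables. Col4a3 and Col4a4, collagen chains of that membrane, had -0.30 and -0.10 in SM versus WT and -0.34 and -0.02 in DM versus WT in the authors' deposited tables and did not pass. The median of the 17 genes was 0.39 in SM versus WT and 0.34 in DM versus WT. The laminins and agrin are also made by tubules.

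**Figure D4:**
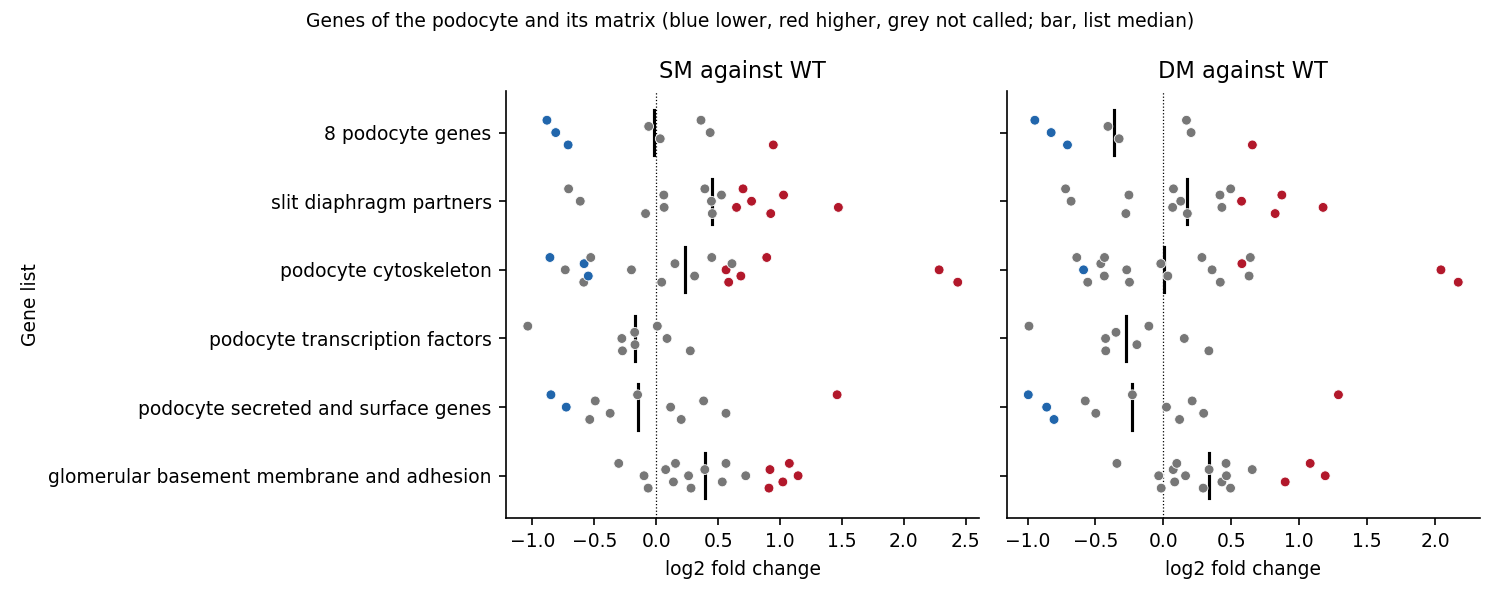
Deposited log2 fold change of every gene in the 8 podocyte genes and in 5 further lists, in SM versus WT (left) and DM versus WT (right), with list medians as bars and calls in blue (lower) and red (higher). Calls are mixed in the cytoskeletal and the secreted and surface lists, and the slit diaphragm partner and basement membrane lists hold 0 lower calls.

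Markers of other cell types moved with these values, and their part in the results was not tested. Endothelial genes, of the glomerulus and of other vessels of the kidney, had 0 of 13 called in SM versus WT (2 with an unadjusted p below 0.05, edgeR) and 4 lower in DM versus WT in the authors' deposited tables. The summed level of the list was 1167.93 CPM in DM, 1433.72 in SM and 1546.55 in WT kidneys. Ehd3, known for glomerular endothelium, had -0.75 in DM versus WT (adjusted p = 0.00285) and -0.30 in SM versus WT (adjusted p = 0.409), and Emcn -0.95 (adjusted p = 0.0011) and -0.60 (adjusted p = 0.0666), in the authors' deposited tables. Tek, the angiopoietin receptor, fell by 0.71 in DM versus WT and had -0.42 in SM versus WT (adjusted p = 0.12) in the authors' deposited tables. Of the 13 endothelial genes, 9 did not pass in DM versus WT, and 0 of 13 passed in DM versus SM (1 with an unadjusted p below 0.05 by edgeR, Ehd3 at -0.45 in the authors' deposited table).

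Mesangial and juxtaglomerular genes had 4 of 10 higher and 1 lower in SM versus WT and 3 higher and 1 lower in DM versus WT in the authors' deposited tables. Acta2 and Tagln, also genes of smooth muscle and myofibroblasts, had 2.44 and 2.31 in SM versus WT and 1.84 and 1.88 in DM versus WT in the authors' deposited tables. Agtr1a, the angiotensin receptor, fell by 0.58 in SM versus WT and 0.88 in DM versus WT, and Gata3, also a collecting duct gene, rose by 1.0 in SM versus WT and had 0.63 in DM versus WT (adjusted p = 0.204), in the authors' deposited tables. Ren1 stood at the lowest average in the authors' deposited tables (log2 CPM -4.28), with fold changes and likelihood ratios of 0. Its row therefore cannot show whether Ren1 was expressed or changed, and how reads were assigned to it was not tested. Parietal epithelial genes, of the outer layer of the glomerulus, had 4 of 6 higher in SM versus WT and 3 of 6 in DM versus WT, and 0 lower in either, with Akap12 at 2.0 and 1.7, in the authors' deposited tables. The summed level of that list was 1145.56 CPM in DM, 1327.53 in SM and 730.7 in WT kidneys. Cd24a had the highest average of the 6 genes (log2 CPM 8.89) and so weighs most in that sum. Which cells of the whole kidney gave these reads was not tested.

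Macrophage genes rose for 11 of 11 in SM versus WT and 10 of 11 in DM versus WT in the authors' deposited tables, and their summed level was 526.6 CPM in DM, 519.7 in SM and 141.5 in WT kidneys. Mesothelial genes, of cells that share Wt1 and Podxl with podocytes, rose for 3 of 6 in SM versus WT, and for 3 with 1 lower in DM versus WT, in the authors' deposited tables. Msln, mesothelin, had 3.22 in SM versus WT and 3.21 in DM versus WT in the authors' deposited tables. Lrrn4 (-0.73 and -1.56, called lower in DM versus WT) and Gpm6a (-0.62 and -0.45, not called), named after their values were seen, lay below 0 in SM and DM versus WT in the authors' deposited tables. The mesothelial list summed to 305.1 CPM in DM, 323.5 in SM and 196.6 in WT kidneys. Krt19, a keratin, had the highest average of the 3 genes that rose (log2 CPM 6.25) and so weighs most in the rise of that sum. It had 2.41 in SM versus WT and 2.25 in DM versus WT in the authors' deposited tables. Which cells gave the Krt19 reads was not tested. The share of mesothelial cells in the Podxl and Wt1 reads was not tested. Principal cell genes of the collecting duct rose for 7 of 9 in SM versus WT and 4 of 9 in DM versus WT, and proximal tubule genes fell for 11 of 12 in both, in the authors' deposited tables. Within that principal cell list, Hsd11b2 had 1.21 and 0.85 in SM and DM versus WT, while the water channel genes Aqp2 (-0.28 and -0.06) and Aqp3 (-0.27 and -0.11) did not pass, in the authors' deposited tables. The 2 water channel genes are named after their values were seen. Lymphocyte genes, 7 of 10 of which averaged below 1 CPM, had 0 called in SM versus WT (2 with an unadjusted p below 0.05, edgeR) and 4 higher in DM versus WT in the authors' deposited tables.

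**Figure D5:**
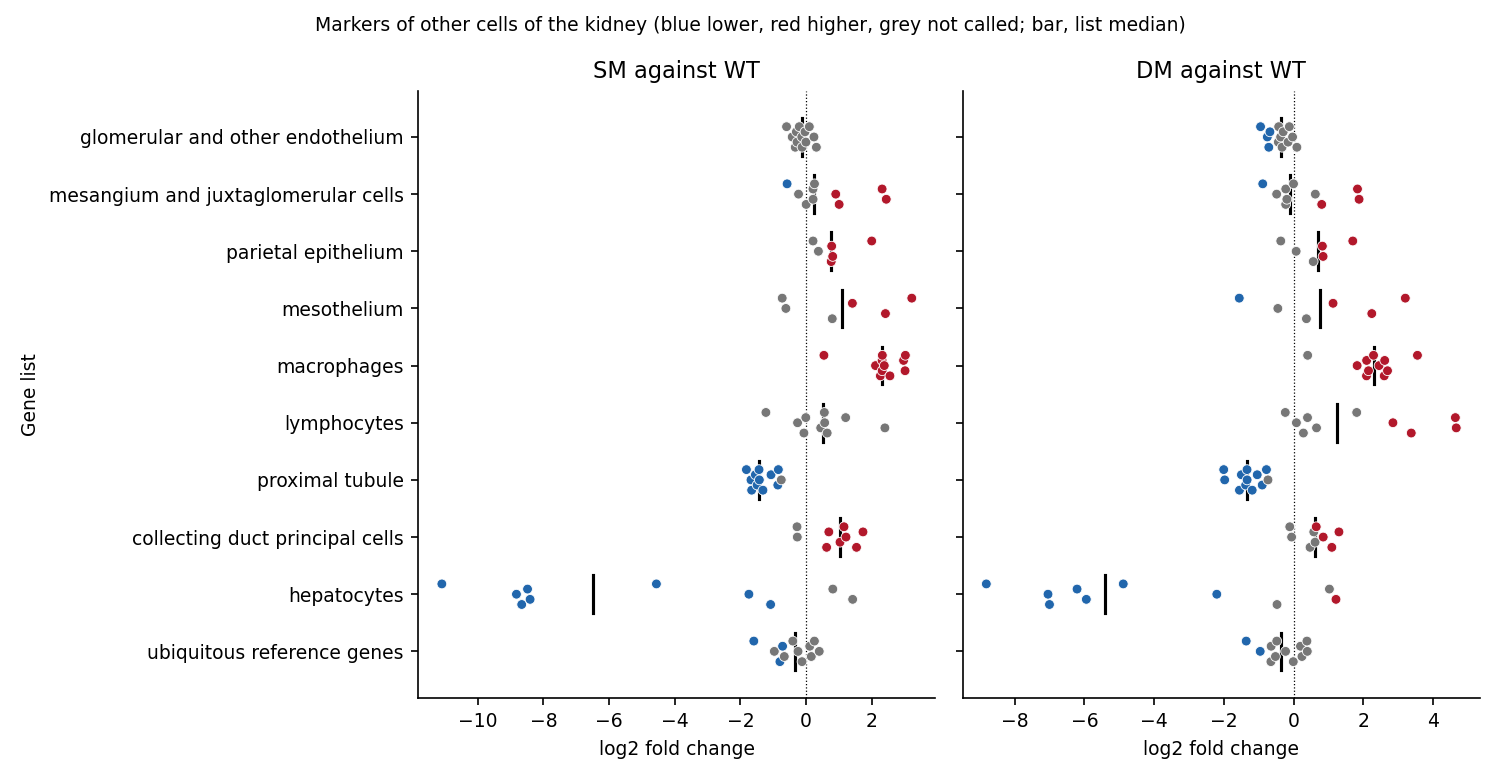
Deposited log2 fold change of markers of other cell types and of ubiquitous genes in SM versus WT (left) and DM versus WT (right), with list medians as bars and calls in blue (lower) and red (higher). All 11 macrophage genes lie above 0, all 12 proximal tubule genes lie below 0, and endothelial genes lie mostly between -1 and 0.

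The 5 rows whose fold changes against WT were nearest to those of Nphs1, by Euclidean distance over the 2 comparisons among 14036 named rows, were Sdha, Lrrc19, Mrpl42, Gas2 and Grtp1, at distances of 0.0165 to 0.0296. As 291 rows lay within 0.2 of Nphs1, likeness over 2 comparisons does not single these rows out.

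Recentring on the median of all rows averaging 1 CPM or more left the counts of calls among the 8 genes and among the 69 as they were, whereas recentring on a list of ubiquitous genes moved them. That list of 12 genes, Actb and Gapdh among them, had a median of -0.33 in SM versus WT and -0.35 in DM versus WT. Of these, 3 were lower in SM versus WT (Tfrc, Sdha and Pgk1) and 2 in DM versus WT, Sdha among them, in the authors' deposited tables. After recentring on that median, the 8 genes had 3 higher and 0 lower in SM versus WT, in place of 1 and 3, and 1 higher and 1 lower in DM versus WT, in place of 1 and 3. The 69 further genes then had 31 higher and 0 lower in SM versus WT, in place of 18 and 5, and 28 higher and 1 lower in DM versus WT, in place of 11 and 4. Under the same setting 5419 of all 30431 rows were called in SM versus WT, in place of 4248, and 5826 in DM versus WT, in place of 4100. Nphs1, Podxl and Ptpro stayed below 0 and Cd2ap above 0 under that centring, and Wt1 turned to values above 0.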

How the data were processed

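Libraries of 10 kidneys were made with Illumina's stranded kit for total RNA, as the labels' protocols state. Tools in the submitters' processing notes are edgeR 3.2.4, Subread 1.4.6 and featureCounts, TopHat2 2.0.12, Cufflinks and bcl2fastq 1.8.4, and the build is mm10. For their roles, the annotation and the strand setting, the sources used here give nothing. As deposited, the data are 3 comparison tables. Per the file headers these give log2 fold changes and average log2 CPM, a likelihood ratio score, and p-values with adjusted p-values as the authors deposited them. The tables were checked to be contrasts of 1 fit: the averages were equal in all 3, p was the chi-square tail of the score, and the adjusted p was the Benjamini-Hochberg value over 30431 rows. The test on counts per library named in the design could not be run, and the deposited test, named there first, was used.

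Group levels were solved from the average over 4 WT, 3 SM and 3 DM libraries, weighting libraries equally. Each SE is the size of the fold change over the square root of its score. Neither step was checked against values per library, which were not analysed here. The deposited average may weight libraries unequally, so the error of the computed levels is unknown. Depth is unknown, and the number of animals limits precision. Python 3.11.15, numpy 2.4.6, scipy 1.17.1 and pandas 2.3.3 were used. Groups came from the sample titles. The 8 genes, the lists and the tests were chosen with earlier results of these data known, and the 10 CPM level of the comparison rows was set once the tables had been read. Genes named were the 8, up to 4 called genes per podocyte list and up to 3 per other list with the largest change at 1 CPM or more, and the 5 rows nearest to Nphs1. Col4a3, Col4a4, Lmx1b, Aqp2, Aqp3, Lrrn4 and Gpm6a were added after their values were seen, and some genes that the rule names are not reported here. Alternatives were other thresholds, sets of rows, a t distribution and 2 recentrings. Promoter and miRNA sequences are from RefSeq (GRCm38.p6), and 5 of the 8 genes had promoter entries. Gene models are from GENCODE M21 on GRCm38, the assembly that mm10 names.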

Additional observations from a re-analysis of the deposited data

How the results depend on the processing

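With recentring on the ubiquitous genes, which adds 0.33 to every log2 fold change of SM versus WT and 0.35 to those of DM versus WT, 2 of the 8 genes were called in DM versus WT in place of 4, and 29 of the 69 further genes in place of 15. At an adjusted p below 0.01, 2 of the 8 genes were called in DM versus WT and 15 of the 69 in SM versus WT, in place of 23. At that threshold 2596 of all rows passed in DM versus WT, in place of 4100, and 2775 in SM versus WT, in place of 4248. Read against a t distribution with 7 residual degrees of freedom, in place of chi-square and with edgeR's estimate of the spread kept, 0 of the 8 were called in SM versus WT and 0 in DM versus WT, and 1 of the 69 in each, where 682 and 451 of all rows passed; the largest of the 8 genes' adjusted p among those called by the authors was 0.205. In DM versus SM the counts were 0 under all 7 alternatives. The other totals of calls stayed within 1.5 times, though recentring on the ubiquitous genes changed their split in SM versus WT to 3 higher and 0 lower of the 8 and to 31 higher and 0 lower of the 69. Recentring on the ubiquitous genes reversed Wt1 in SM versus WT (0.27) and DM versus WT (0.029) and Ptpro in DM versus SM (-0.0013), none of them called, and brought Synpo (0.76) and Plce1 (0.69) past the threshold in SM versus WT, while Nphs1 in DM versus WT and Cd2ap in both remained called. Adjusting over named rows, or over rows at 1 CPM, changed no call among the 8. Leaving out animals was not run, since it needs values per library. No paired analysis was possible because the groups share no replicate numbers and the tables hold no libraries. Unknown depth and 3 or 4 animals a group limit what small changes could be seen.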
